A study of Saccharomyces cerevisiae with 12 samples.

Results

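The genes described here are 54 ribosome biogenesis factors of Saccharomyces cerevisiae among the 5917 coding sequences counted in each library. They were chosen as a list of systematic gene names by known function, with no threshold on a measured value. The choice was made with earlier results of these data known. All 54 were found, and all 54 passed the filter on low counts. By role they comprise 4 proteins of the box C/D small nucleolar ribonucleoproteins (*NOP1*, *NOP56*, *NOP58* and *RRP9*) and 7 of the UTP-A complex (*UTP4*, *UTP5*, *UTP8*, *UTP9*, *UTP10*, *UTP15* and *NAN1*). The UTP-B complex contributes 6 (*UTP6*, *UTP13*, *UTP18*, *UTP21*, *DIP2* and *PWP2*) and the Mpp10 complex 3 (*MPP10*, *IMP3* and *IMP4*). A further 16 proteins act with the small-subunit processome (*NSR1*, *RRP5*, *ENP1*, *EMG1*, *BMS1*, *RCL1*, *SOF1*, *KRR1*, *NOP14*, *UTP7*, *UTP11*, *UTP14*, *UTP20*, *UTP22*, *UTP23* and *UTP30*). The remaining members are 9 large-subunit assembly factors (*NOP7*, *ERB1*, *YTM1*, *NOC2*, *MAK21*, *RPF2*, *BRX1*, *NUG1* and *NOG1*) and 9 RNA helicases (*DRS1*, *HAS1*, *MAK5*, *DBP3*, *DBP9*, *DBP10*, *SPB4*, *ROK1* and *RRP3*).

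Ribosomes are built in the nucleolus, where RNA polymerase I transcribes the long ribosomal RNA precursor and the small-subunit processome assembles on it while it is still being made. Box C/D particles, built on the methyltransferase Nop1 (fibrillarin in animals), modify the RNA and, through the U3 particle, guide its cleavage, whereas UTP-A, UTP-B and the Mpp10 complex form the scaffold and GTPases and helicases drive the later folding steps. In yeast these genes are known to be expressed together, to be highly active in glucose and to be switched down in stress or when growth slows, and many of their promoters carry the PAC and RRPE elements.

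RNA was sequenced from strain BY4741 and from an *mrn1Δ* strain, made in BY4741 by placing a kanamycin cassette in the *MRN1* gene, which encodes an RNA-binding protein. The 4 groups, each of 3 libraries from triplicate cultures, were *mrn1Δ* respiratory, wild-type respiratory, *mrn1Δ* fermentative and wild-type fermentative. Fermentative cells were in log phase at an OD600 of 0.6 in YEPD with 2% glucose, and respiratory cells had spent 20 minutes in YEPEG, with 2% ethanol and 2% glycerol in place of glucose. The study used these libraries to ask what Mrn1 does in glucose and in the early shift to respiration.

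Library totals ranged between 16231559 and 26542199 estimated counts, so that 3 counts corresponded to 0.113 to 0.185 CPM (counts scaled to 1000000 per library). The lowest count of any member in any library was 86. None of the 54 members had a fractional count, which marks reads shared between coding sequences, against 624 of all 5917. The strand setting of the counting is not given in the sources used here, so reads from an antisense partner could not be told apart. *MRN1* itself had 2 to 10 counts in the *mrn1Δ* respiratory libraries and 2 to 15 in the *mrn1Δ* fermentative libraries, against 83.7 to 87.2 normalized CPM in wild-type respiratory and 99.6 to 138 in wild-type fermentative libraries. The a-mating-type gene *STE2* had 78.2 to 200 normalized CPM in the 12 libraries and the short a-factor gene *MFA1* 0.756 to 2.37. The alpha-type genes *STE3* and *MF(ALPHA)1* had at most 4.68 and 1.25. *MF(ALPHA)2*, also alpha-type, had 3.48 to 7.865, above *MFA1*, and the alpha-type gene *SAG1* had 22.8 to 34.4. *LEU2*, *URA3* and *MET17*, deleted in BY4741, had at most 3, 9 and 12 counts, and *HIS3*, of which this strain background keeps a part, had 16.8 to 60.2 normalized CPM. The glucose-repressed lactate permease gene *JEN1* had 1328 to 1544 normalized CPM in *mrn1Δ* respiratory and 567 to 756 in wild-type respiratory libraries, against 13.1 to 15.3 in *mrn1Δ* fermentative and 13.7 to 17.6 in wild-type fermentative libraries.

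The promoters of these genes are shown first because the same short letters recur in them. The cores searched were GATGAG for PAC (the polymerase A and C box, bound in yeast by the repressors Dot6 and Tod6) and AAAATTTT for RRPE (the ribosomal RNA processing element, bound in yeast by Stb3), on both strands and with overlapping matches counted. The window reached 250 bases before the start codon to 50 bases after its first base. In the segments below, read from the RefSeq genome of build R64, capitals mark these cores, and CTCATC is the PAC core on the other strand. *NOP1*, *NSR1*, *NOP58* and *RRP5* are shown as members with some of the largest falls after the shift, *ENP1* for its genotype difference, and *NOP7* and *RRP3* as members with small falls.
NOP1: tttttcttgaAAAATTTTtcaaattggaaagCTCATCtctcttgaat
NSR1: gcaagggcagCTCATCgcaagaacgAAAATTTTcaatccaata
NOP58: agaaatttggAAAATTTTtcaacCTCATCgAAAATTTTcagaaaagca
RRP5: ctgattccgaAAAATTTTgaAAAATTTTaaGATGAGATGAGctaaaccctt
ENP1: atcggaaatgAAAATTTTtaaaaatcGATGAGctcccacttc
NOP7: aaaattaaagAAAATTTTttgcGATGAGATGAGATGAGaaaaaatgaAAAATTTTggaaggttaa
RRP3: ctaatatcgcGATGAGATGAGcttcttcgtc
Each segment is written 5′ to 3′ in the direction of its gene. They lie at chrIV:427129-427175 on the plus strand, chrVII:807811-807853 on the minus strand, chrXV:898458-898505 on the minus strand, chrXIII:731259-731309 on the minus strand, chrII:714560-714601 on the minus strand, chrVII:695266-695330 on the plus strand and chrVIII:229223-229253 on the minus strand. They reach back to between 145 bases (*NOP58*) and 235 bases (*NOP1*) before the start codon. Transcript starts were not used here.

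A PAC core was found in 50 of the 54 promoters (92.6%), against 1206 of 5885 promoters of all genes in windows of the same length (20.5%). An RRPE core was found in 42 (77.8%), against 533 of all promoters (9.06%), and 41 members held both (75.9% against 4.47%). *UTP15* had RRPE without PAC, 9 members had PAC without RRPE (*UTP8*, *UTP18*, *IMP3*, *SOF1*, *RRP9*, *UTP11*, *RCL1*, *MAK5* and *RRP3*), and *UTP22*, *UTP30* and *EMG1* had no match in the window. The cores clustered at a distance from the start codon: the 75 PAC matches lay a median of 120 bases before it (57 to 229) and the 51 RRPE matches a median of 137 bases before it (33 to 225). Counted over the 250 upstream bases alone, 49 members had PAC (90.7% against 17.2%) and 42 had RRPE (77.8% against 8.72%). The member that lost its match was *UTP4*, whose PAC core lay beyond the start codon. *NOP7* showed the densest cluster of those printed, with 3 overlapping PAC cores between 2 RRPE cores, and *RRP5* had a pair of RRPE cores followed by overlapping PAC cores. A match in these letters is a description and not a measured binding site. Some matches lie in a region shared with a divergent neighbouring gene, as for *RRP3* and *MAK5*.

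**Figure D1:**
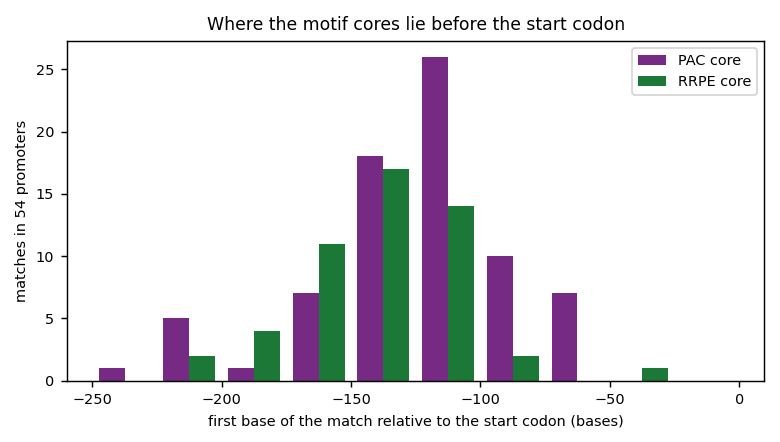
Histogram of the first base of each core match relative to the start codon (x axis, bases, negative is upstream) and the number of matches in the 54 member promoters (y axis), for the 75 PAC and 51 RRPE matches upstream. Both distributions peak between 100 and 150 bases before the start codon, with medians of 120 bases for PAC and 137 bases for RRPE.

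At 20 minutes after the shift the transcripts of all 54 members had fallen in both genotypes. Levels are given below as normalized CPM, which are CPM after scaling by TMM over the 12 libraries, and changes as log2 fold changes with their standard error (SE) from edgeR's quasi-likelihood test, called at a Benjamini-Hochberg adjusted p under 0.05 over all genes tested. In *mrn1Δ* 54 of 54 were called lower and 0 higher, where 40.3% of 5793 genes were called lower. In wild-type 54 of 54 were called lower and 0 higher, where 36.4% of 5801 genes were called lower. Every *mrn1Δ* respiratory library lay below every *mrn1Δ* fermentative library for all 54 members (41.1% of all genes), and likewise for all 54 in wild-type (38.6% of all genes). The median log2 fold change over the members was −2.41 in *mrn1Δ* and −1.79 in wild-type, against 0.05 and 0.03 over all genes tested.

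Large falls were common among the members. A fall of at least 2-fold was measured for 53 members in *mrn1Δ* and 52 in wild-type, against 17.0% and 15% of all genes. At least 4-fold falls were seen for 35 members in *mrn1Δ* and 22 in wild-type, against 4.33% and 2.74% of all genes. Falls of at least 8-fold were seen for 10 members in *mrn1Δ* and 3 in wild-type, which were *NOP1*, *NSR1* and *RPF2*, against 0.846% and 0.379% of all genes. Together the members took 0.234%, 0.221% and 0.232% of all counts in *mrn1Δ* respiratory libraries and 0.302%, 0.259% and 0.289% in wild-type respiratory libraries. In fermentative libraries they took 1.10%, 1.07% and 1.07% in *mrn1Δ* and 1.03%, 1.06% and 1.06% in wild-type. The 137 cytosolic ribosomal protein genes took on average 6.24% of counts in *mrn1Δ* respiratory, 6.90% in wild-type respiratory, 13.7% in *mrn1Δ* fermentative and 14.5% in wild-type fermentative libraries. These are shares of each library, so less of these transcripts per cell and more of all others could not be told apart.

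**Figure D2:**
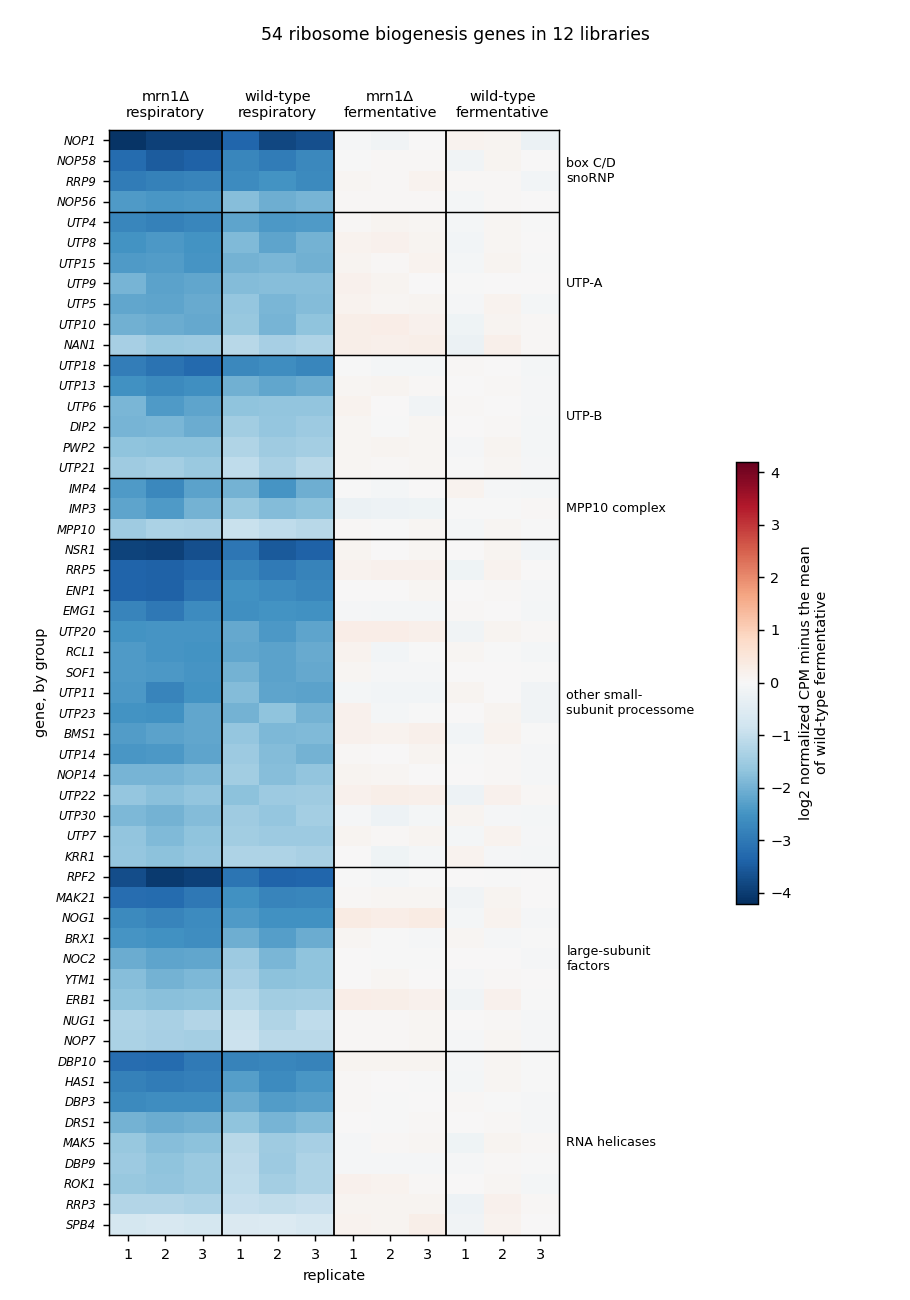
Each row is a member, grouped by role, and each column a library (*mrn1Δ* respiratory, wild-type respiratory, *mrn1Δ* fermentative, wild-type fermentative, replicates 1 to 3). Colour gives log2 normalized CPM minus the wild-type fermentative mean of that gene, and the respiratory columns are blue in every row, darkest for *NOP1*, *NSR1* and *RPF2* and palest for *SPB4*.

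The box C/D proteins showed the deepest falls of any role group, with a median log2 fold change of −3.17 in *mrn1Δ* and −2.68 in wild-type. *NOP1* (YDL014W, chrIV:427364-428347, plus strand), the snoRNA-guided methyltransferase, had 29.4, 33.5 and 33.5 normalized CPM in the *mrn1Δ* respiratory libraries and 49.9, 36.2 and 39.2 in the wild-type respiratory libraries. In the fermentative libraries it had 485, 453 and 518 in *mrn1Δ* and 556, 546 and 429 in wild-type. The groups of the shift did not come near each other, and *NOP1* kept 6.62% of its fermentative level in *mrn1Δ* and 8.18% in wild-type, the largest fall of any member in both strains. Its log2 fold change was −3.91 ± 0.08 in *mrn1Δ* and −3.58 ± 0.16 in wild-type (± SE), with edgeR adjusted p of 5.78e-11 and 9.72e-08. *NOP58* (YOR310C), a core protein that holds the snoRNA, had 46.8, 38.5 and 41.6 normalized CPM in the *mrn1Δ* respiratory libraries and 65.5, 57 and 66.7 in the wild-type respiratory libraries. In the fermentative libraries it had 436, 449 and 456 in *mrn1Δ* and 397, 478 and 445 in wild-type, and its log2 fold change was −3.40 ± 0.07 in *mrn1Δ* and −2.78 ± 0.10 in wild-type. *NOP56* (YLR197W), its paralogous partner in the same particle, fell least of the group, with 122, 118 and 119 normalized CPM in the *mrn1Δ* respiratory libraries and 184, 155 and 163 in the wild-type respiratory libraries. It had 664, 652 and 663 in *mrn1Δ* and 604, 665 and 641 in wild-type in the fermentative libraries, and its log2 fold change was −2.47 ± 0.05 in *mrn1Δ* and −1.90 ± 0.10 in wild-type. *NOP56* thus remained the more abundant partner after the shift, with 141 ± 12.5 TPM (a level scaled by transcript length and to 1000000 per library, mean ± SD) in wild-type respiratory libraries, where *NOP58* had 52.6 ± 5.68 TPM. *RRP9*, specific to the U3 particle, changed by −2.93 ± 0.06 in *mrn1Δ* and −2.58 ± 0.08 in wild-type on the log2 scale.

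UTP-A, the complex that binds the precursor RNA first and is linked to its transcription, had a median log2 fold change of −2.31 in *mrn1Δ* and −1.77 in wild-type over its 7 members. *UTP4* (YDR324C), a WD-repeat protein, fell most in this complex, with 15.5, 14.7 and 15.7 normalized CPM in the *mrn1Δ* respiratory libraries and 22.5, 19.7 and 20.3 in the wild-type respiratory libraries. Its fermentative values were 109, 112 and 109.8 in *mrn1Δ* and 99.5, 110.2 and 104 in wild-type. The log2 fold change of *UTP4* was −2.85 ± 0.05 in *mrn1Δ* and −2.30 ± 0.08 in wild-type, and its *mrn1Δ* respiratory libraries all lay below the wild-type ones. *NAN1* (YPL126W), also a WD-repeat protein, fell least, with 87.9, 79.3 and 81.1 normalized CPM in the *mrn1Δ* respiratory libraries and 104, 88.3 and 95.1 in the wild-type respiratory libraries. In glucose it stood at 272, 267 and 273 in *mrn1Δ* and 195, 266 and 240.0 in wild-type, with the lowest value in wild-type replicate 1. The log2 fold change of *NAN1* was −1.71 ± 0.05 in *mrn1Δ* and −1.26 ± 0.12 in wild-type. The other members lay between these, in the order *UTP8*, *UTP15*, *UTP9*, *UTP5* and *UTP10* in wild-type, from −1.99 ± 0.10 to −1.72 ± 0.12.

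In UTP-B, a scaffold complex of mostly WD-repeat proteins, the median log2 fold change was −2.11 in *mrn1Δ* and −1.57 in wild-type, and the members were less alike. *UTP18* (YJL069C) fell most, with 11.5, 10.1 and 9.02 normalized CPM in the *mrn1Δ* respiratory libraries and 13.2, 14.1 and 12.9 in the wild-type respiratory libraries. It had 85.3, 81.2 and 80.3 in *mrn1Δ* and 88.5, 87.3 and 81.6 in wild-type in the fermentative libraries. Its log2 fold change of −3.01 ± 0.08 in *mrn1Δ* and −2.65 ± 0.08 in wild-type stood well apart from that of *UTP21* (YLR409C), which was −1.55 ± 0.05 in *mrn1Δ* and −1.17 ± 0.09 in wild-type. *UTP21* had 57.8, 60.3 and 54.8 normalized CPM in the *mrn1Δ* respiratory libraries and 77.1, 62.4 and 71.5 in the wild-type respiratory libraries. Before the shift its values were 169, 167 and 172 in *mrn1Δ* and 159, 169.8 and 154 in wild-type. *UTP6* (YDR449C), the member with the lowest level per length in wild-type glucose (29.3 ± 0.566 TPM), had 9.97, 7.29 and 8.15 normalized CPM in the *mrn1Δ* respiratory libraries and 11.7, 12 and 12.1 in the wild-type respiratory libraries, and 42, 38.4 and 34.3 in *mrn1Δ* and 39, 38.3 and 36.2 in wild-type in the fermentative libraries. The *mrn1Δ* libraries of *UTP6* spread more than the wild-type ones in both conditions. Its *mrn1Δ* change, −2.19 ± 0.12, had a standard error above that of most members. *DIP2* and *PWP2*, both large WD-repeat proteins of the complex, changed by −1.51 ± 0.08 and −1.37 ± 0.09 in wild-type.

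The 3 proteins of the Mpp10 complex, which joins U3 to the precursor RNA, fell by different amounts. *IMP4* (YNL075W), which helps U3 pair with the RNA, had 12.6, 9.98 and 13.7 normalized CPM in the *mrn1Δ* respiratory libraries and 16.4, 11.8 and 15.6 in the wild-type respiratory libraries. The fermentative libraries held 65.1, 61.1 and 65.3 in *mrn1Δ* and 72.2, 63 and 61.1 in wild-type, so that the fall was clear in both strains while the respiratory libraries of the strains overlapped. *MPP10* (YJR002W) itself had 44.9, 51.2 and 49.5 normalized CPM in the *mrn1Δ* respiratory libraries and 66, 60.6 and 57.4 in the wild-type respiratory libraries, and 130.4, 126 and 136 in *mrn1Δ* and 121, 136 and 125 in wild-type in the fermentative libraries. The log2 fold change was −2.41 ± 0.10 in *mrn1Δ* and −2.14 ± 0.13 in wild-type for *IMP4*, and for *MPP10* it was −1.43 ± 0.06 in *mrn1Δ* and −1.03 ± 0.08 in wild-type. *IMP3*, the third partner, lay between them at −1.96 ± 0.11 in *mrn1Δ* and −1.68 ± 0.12 in wild-type.

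Among the 16 other small-subunit processome factors the median log2 fold change was −2.44 in *mrn1Δ* and −1.96 in wild-type. *NSR1* (YGR159C, chrVII:806412-807656, minus strand), the yeast counterpart of nucleolin, had 34, 33.3 and 39.2 normalized CPM in the *mrn1Δ* respiratory libraries and 61.5, 43.8 and 48.5 in the wild-type respiratory libraries. Fermentative values were 546, 510.0 and 534 in *mrn1Δ* and 510.1, 544 and 468 in wild-type. *NSR1* kept 6.70% of its fermentative level in *mrn1Δ* and 10.1% in wild-type, a log2 fold change of −3.90 ± 0.08 in *mrn1Δ* and −3.28 ± 0.14 in wild-type with edgeR adjusted p of 6.32e-11 and 7.5e-08. *RRP5* (YMR229C, chrXIII:725934-731123, minus strand), a long RNA-binding protein needed for both subunits, had 95.3, 93.8 and 101 normalized CPM in the *mrn1Δ* respiratory libraries and 148, 126 and 140.2 in the wild-type respiratory libraries. It had 1100.0, 1117 and 1120.0 in *mrn1Δ* and 870.3, 1101 and 994 in wild-type in the fermentative libraries, and its log2 fold change was −3.52 ± 0.06 in *mrn1Δ* and −2.81 ± 0.12 in wild-type. *ENP1* (YBR247C), which stays with the small subunit until its export, had 7.84, 7.67 and 9.29 normalized CPM in the *mrn1Δ* respiratory libraries and 13.7, 12.9 and 12 in the wild-type respiratory libraries. Its fermentative values were 80.5, 81.8 and 84.6 in *mrn1Δ* and 80.3, 83.5 and 77.2 in wild-type, so that the strains overlapped in glucose and did not after the shift. *BMS1* (YPL217C), a GTPase of the processome, had 42.2, 44.8 and 47 normalized CPM in the *mrn1Δ* respiratory libraries and 68.6, 57.4 and 59.5 in the wild-type respiratory libraries, and 240.4, 238 and 249 in *mrn1Δ* and 198, 236 and 209.7 in wild-type in the fermentative libraries. Its partner *RCL1* changed by −2.47 ± 0.09 in *mrn1Δ* and −2.16 ± 0.09 in wild-type on the log2 scale.

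The smallest fall of this group was that of *KRR1* (YCL059C), a KH-domain protein, with 35.7, 33.5 and 35.7 normalized CPM in the *mrn1Δ* respiratory libraries and 44.8, 44.1 and 42.1 in the wild-type respiratory libraries. In glucose it stood at 109, 95.4 and 102 in *mrn1Δ* and 120.0, 104 and 104 in wild-type. The log2 fold change was −1.55 ± 0.07 in *mrn1Δ* and −1.30 ± 0.08 in wild-type. *UTP22* (YGR090W), part of the UTP-C complex and without a core match in its promoter, had 84.5, 77.2 and 82.1 normalized CPM in the *mrn1Δ* respiratory libraries and 78.3, 89.4 and 92.8 in the wild-type respiratory libraries. Before the shift its values were 297, 309 and 304 in *mrn1Δ* and 224, 291 and 268 in wild-type. *UTP22* fell by a log2 fold change of −1.90 ± 0.05 in *mrn1Δ* and −1.56 ± 0.11 in wild-type, and its respiratory libraries overlapped between the strains. The other members without a match, *UTP30* and *EMG1*, changed by −1.49 ± 0.11 and −2.52 ± 0.07 in wild-type. *EMG1*, a methyltransferase of the small-subunit rRNA, had neither core and fell more than the median member. By motif class the wild-type medians were −1.77 for the 41 members with both cores, −2.06 for the 9 with PAC alone and −1.56 for the 3 with neither. A role of the cores in the fall was not tested.

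The large-subunit factors had a median log2 fold change of −2.15 in *mrn1Δ* and −1.67 in wild-type. *RPF2* (YKR081C, chrXI:591506-592540, minus strand), which with Rrs1 brings the small 5S rRNA particle into the large subunit, had 8.04, 6.61 and 7.14 normalized CPM in the *mrn1Δ* respiratory libraries and 12.6, 10.4 and 10.5 in the wild-type respiratory libraries. In the fermentative libraries it had 106, 100.3 and 107 in *mrn1Δ* and 108, 106 and 107 in wild-type. *RPF2* kept 6.97% of its fermentative level in *mrn1Δ* and 10.5% in wild-type, and its log2 fold change was −3.85 ± 0.07 in *mrn1Δ* and −3.23 ± 0.10 in wild-type, with edgeR adjusted p of 4.73e-11 and 1.73e-08. *NOP7* (YGR103W) had 161, 157 and 152 normalized CPM in the *mrn1Δ* respiratory libraries and 220.1, 189 and 187 in the wild-type respiratory libraries. It had 421, 428 and 432 in *mrn1Δ* and 400.3, 433 and 397 in wild-type in the fermentative libraries, and kept 36.7% of its fermentative level in *mrn1Δ* and 48.5% in wild-type. On the log2 scale it changed by −1.44 ± 0.05 in *mrn1Δ* and −1.02 ± 0.09 in wild-type, and its promoter held 3 PAC and 2 RRPE cores. *ERB1* and *YTM1*, which form a complex with Nop7, changed by −1.94 ± 0.05 in *mrn1Δ* and −1.34 ± 0.11 in wild-type and by −1.92 ± 0.06 in *mrn1Δ* and −1.57 ± 0.10 in wild-type. *MAK21* and *NOC2*, partners in the Noc complex of early large-subunit particles, changed by −3.21 ± 0.07 in *mrn1Δ* and −2.66 ± 0.10 in wild-type and by −2.15 ± 0.05 in *mrn1Δ* and −1.67 ± 0.11 in wild-type. The GTPase genes *NOG1* and *NUG1* changed by −3.02 ± 0.06 in *mrn1Δ* and −2.46 ± 0.09 in wild-type and by −1.35 ± 0.05 in *mrn1Δ* and −1.05 ± 0.09 in wild-type, and *BRX1* by −2.57 ± 0.06 in *mrn1Δ* and −2.12 ± 0.09 in wild-type.

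The 9 RNA helicases, DEAD-box proteins that remodel the precursor particles, had the smallest median change of the role groups, −1.73 in *mrn1Δ* and −1.33 in wild-type. *DBP10* (YDL031W) stood apart, with 18, 17.4 and 21 normalized CPM in the *mrn1Δ* respiratory libraries and 23.6, 24.5 and 23.4 in the wild-type respiratory libraries. The fermentative libraries held 179, 179.6 and 178 in *mrn1Δ* and 158, 176 and 162 in wild-type. Its log2 fold change of −3.25 ± 0.07 in *mrn1Δ* and −2.77 ± 0.08 in wild-type was close, in wild-type, to that of *NOP58*. *RRP3* (YHR065C), a helicase of small-subunit processing, had 37, 37.1 and 35.3 normalized CPM in the *mrn1Δ* respiratory libraries and 44.5, 42.4 and 44.7 in the wild-type respiratory libraries, and 94.4, 94.9 and 93.8 in *mrn1Δ* and 75.2, 98.3 and 89.6 in wild-type in the fermentative libraries. *SPB4* (YFL002C, chrVI:145114-146934, minus strand), a helicase of large-subunit assembly, had 37.2, 39.6 and 37.7 normalized CPM in the *mrn1Δ* respiratory libraries and 41.2, 41.6 and 39.4 in the wild-type respiratory libraries, and 69.7, 67 and 73.6 in *mrn1Δ* and 56.7, 68.8 and 62.8 in wild-type in the fermentative libraries. *SPB4* kept 54.4% of its fermentative level in *mrn1Δ* and 64.9% in wild-type, the smallest fall of any member, with a log2 fold change of −0.87 ± 0.05 in *mrn1Δ* and −0.60 ± 0.08 in wild-type and edgeR adjusted p of 1.27e-07 and 0.000137. The log2 fold change of *RRP3* was −1.37 ± 0.05 in *mrn1Δ* and −0.97 ± 0.10 in wild-type. *HAS1*, *DBP3*, *DRS1*, *MAK5*, *DBP9* and *ROK1* lay between, from −2.44 ± 0.10 (*HAS1*) to −1.23 ± 0.10 (*ROK1*) in wild-type.

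**Figure D3:**
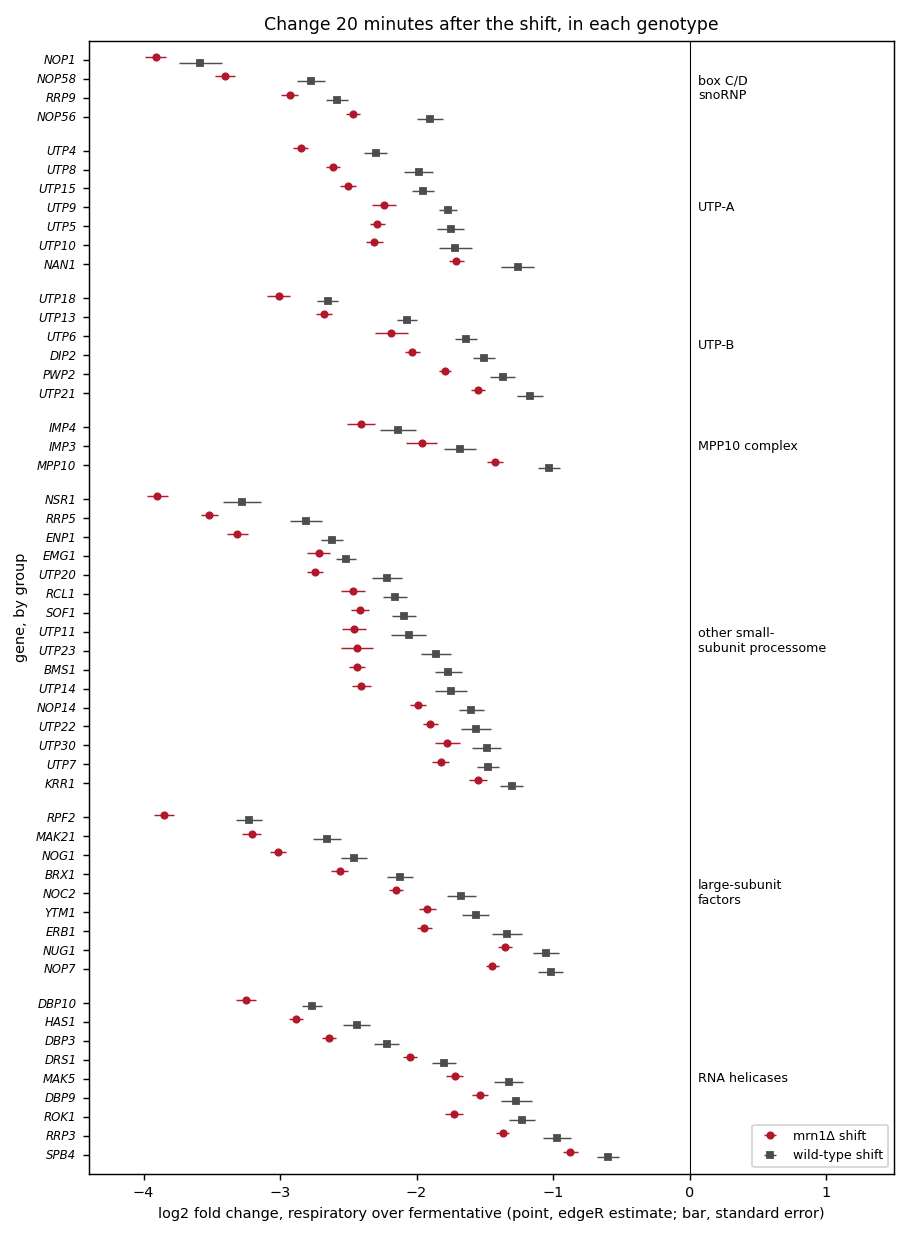
Log2 fold change, respiratory over fermentative, of each member in *mrn1Δ* (circles) and wild-type (squares), with bars for the standard error, grouped by role. Every point is below 0, between −3.91 and −0.87 in *mrn1Δ* and between −3.58 and −0.60 in wild-type, and each *mrn1Δ* point lies left of its wild-type point.

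Levels per length show how the order of the members moved. In *mrn1Δ* respiratory libraries the mean TPM ran between 7.49 (*UTP18*) and 113 (*NOP7*), with a median of 22.6. In wild-type respiratory libraries it ran between 9.56 (*UTP18*) and 141 (*NOP56*), with a median of 27.0. In *mrn1Δ* fermentative libraries it ran between 27.8 (*UTP30*) and 516 (*NOP1*), with a median of 73.1, and in wild-type fermentative libraries between 29.3 (*UTP6*) and 537 (*NOP1*), with a median of 69.5. *NOP1*, highest of the members in glucose, had 43.7 ± 3.32 TPM in *mrn1Δ* respiratory and 55.2 ± 9.11 in wild-type respiratory libraries (mean ± SD, n = 3), below *NOP56* and *NOP7* in both. *NOP7* had 113 ± 4.47 and 139 ± 11.4 TPM in the same groups. The summed TPM of the members was 1402 to 1444 in *mrn1Δ* respiratory, 1616 to 1901 in wild-type respiratory, 5926 to 6043 in *mrn1Δ* fermentative and 5336 to 5945 in wild-type fermentative libraries.

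Members of the same complex differed in how alike their levels were before and after the shift. The highest UTP-A member was 3.97 times the lowest in wild-type respiratory TPM and 2.04 times in wild-type fermentative TPM. For the large-subunit factors the ratio was 9.89 in wild-type respiratory libraries (*NOP7* over *RPF2*) and 2.63 in wild-type fermentative libraries (*NOP7* over *ERB1*). UTP-B gave 3.82 and 2.61 in the same order of conditions, and the Mpp10 complex gave 2.99 and 2.04. The 16 other small-subunit factors gave 5.29 in wild-type respiratory and 14.0 in wild-type fermentative libraries, where *NSR1* was highest. Across the 54 genes, log2 TPM in wild-type glucose and the wild-type log2 fold change had a Pearson correlation of −0.428, and coding length and the same change had a correlation of 0.024. These are descriptions over genes of the same libraries, and genes are not independent replicates. The glucose level enters both quantities of the correlation of −0.428 with opposite sign, which by itself favours a negative value.

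**Figure D4:**
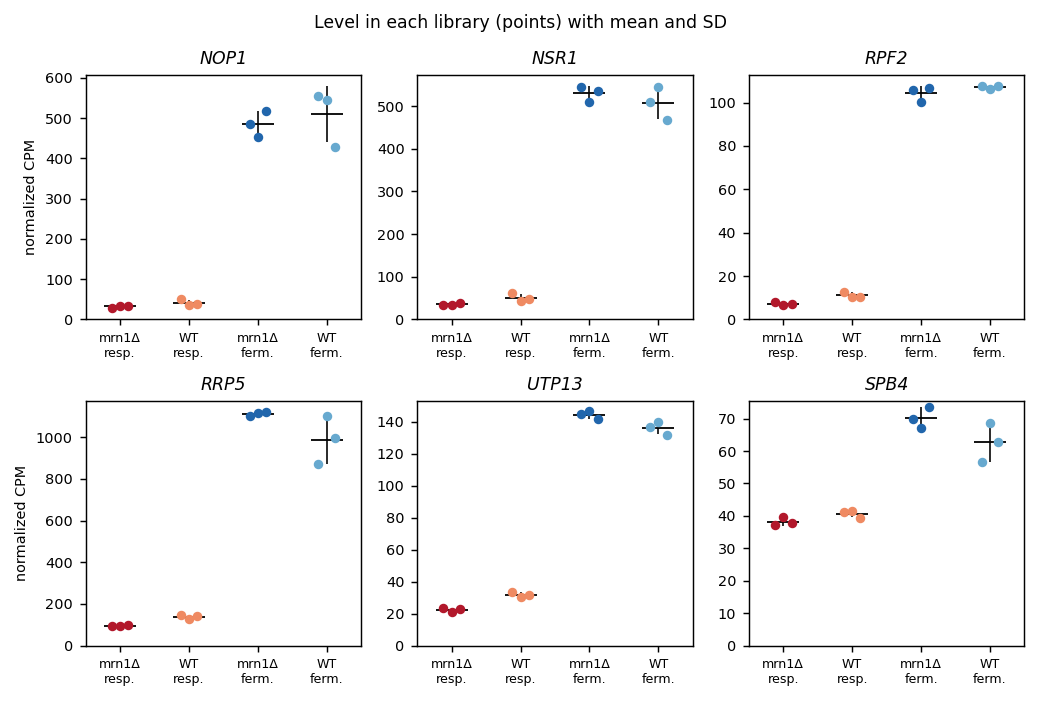
Normalized CPM (y axis, linear) of *NOP1*, *NSR1*, *RPF2*, *RRP5*, *UTP13* and *SPB4* in each library (points), with the mean and SD of the 3 libraries of a group (bars). The *mrn1Δ* respiratory and wild-type respiratory groups lie far below both fermentative groups except for *SPB4*, which kept 54.4% of its level in *mrn1Δ* and 64.9% in wild-type.

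Before the shift no difference between the strains passed the test at any member. In fermentative cells, *mrn1Δ* over wild-type, 0 members were called higher (0.588% of 5785 genes were) and 0 lower (0.328% of genes were) by edgeR's quasi-likelihood test. The median log2 fold change was 0.06, with a range between −0.21 (*IMP3*) and 0.32 (*NOG1*), and 7 members had an unadjusted p under 0.05. All 3 *mrn1Δ* libraries lay above all 3 wild-type libraries for 10 members (10.3% of all genes) and below for 1 (11.4% of all genes). That member was *IMP3*, with 16.3, 16.8 and 17.2 normalized CPM in *mrn1Δ* and 19.3, 19.2 and 20.0 in wild-type. *NOG1* (YPL093W), a nucleolar GTPase of the large subunit, had 438, 424 and 439 normalized CPM in *mrn1Δ* and 326, 382 and 335 in wild-type fermentative libraries. Its log2 fold change was 0.32 ± 0.08 with an edgeR adjusted p of 0.129, and it was called higher by DESeq2, in the fit of all 12 libraries and without wild-type fermentative replicate 2. The sign of these small differences depended on the scaling, since 12 of 54 were negative with TMM and 26 with upper-quartile factors or library totals alone. The longest coding sequences (*UTP20*, *UTP10*, *RRP5*, *UTP22* and *BMS1*, 7482 to 3552 bases) had log2 fold changes of 0.26, 0.24, 0.17, 0.22 and 0.18. The shortest (*IMP3*, *UTP11*, *EMG1*, *UTP23* and *UTP30*, 552 to 825 bases) had −0.21, −0.11, −0.07, 0.04 and −0.12. A role of length was not tested. In log2 counts wild-type replicate 1 correlated at 0.977 and 0.981 with replicates 2 and 3, and these at 0.991 with each other. Without replicate 1 the member median was 0.05.

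At 20 minutes after the shift the members stood lower in *mrn1Δ* than in wild-type. Of the 54, 37 were called lower and 0 higher, where 7.83% of 5800 genes were called lower. All 54 log2 fold changes, *mrn1Δ* over wild-type, were negative, with a median of −0.36 and a range between −0.64 (*ENP1*) and −0.09 (*SPB4*). For 49 members every *mrn1Δ* library lay below every wild-type library (17.9% of all genes). The exceptions were *IMP4*, *UTP22*, *NUG1*, *DBP9* and *SPB4*, whose libraries overlapped. All 6 UTP-B members and 6 of 7 UTP-A members were called lower (all but *NAN1*), with 2 of 4 box C/D proteins (*NOP56* and *NOP58*), 1 of 3 in the Mpp10 complex (*MPP10*), 10 of 16 other small-subunit factors, 6 of 9 large-subunit factors and 6 of 9 helicases.

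*ENP1* showed the largest difference, with the respiratory values given above of 7.84, 7.67 and 9.29 normalized CPM in *mrn1Δ* and 13.7, 12.9 and 12 in wild-type. The log2 fold change was −0.64 ± 0.11 with an edgeR adjusted p of 0.00617. *RPF2* followed at −0.63 ± 0.13 (edgeR adjusted p = 0.00995) and *NOP58* at −0.58 ± 0.08 (edgeR adjusted p = 0.00234). *RRP5* had the smallest edgeR adjusted p of the members, 0.00107, at −0.51 ± 0.07. *UTP13* (YLR222C), a WD-repeat protein of UTP-B, had 23.6, 21.2 and 22.8 normalized CPM in the *mrn1Δ* respiratory libraries and 33.6, 30.2 and 31.8 in the wild-type respiratory libraries. The *mrn1Δ* over wild-type difference was −0.50 ± 0.07 (edgeR adjusted p = 0.00243). *NOP1*, in contrast, did not pass the test at −0.38 ± 0.12 (edgeR adjusted p = 0.058), and *UTP22* and *SPB4* were at −0.10 ± 0.07 and −0.09 ± 0.06. The count of 37 was 22 without wild-type replicate 3, 22 without *mrn1Δ* replicate 1 and 15 without *mrn1Δ* replicate 2. It was 8 where the called change also had to reach 0.5 on the log2 scale. Over all genes the calls lower in the same order were 274, 186, 165 and 99, against 454 in the main fit. *ENP1*, *NOP58*, *RPF2*, *RRP5* and *UTP13* were called in every one of the 14 alternatives.

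Whether the fall itself was larger in *mrn1Δ* was tested as the interaction of genotype and condition, which is the *mrn1Δ* change minus the wild-type change. It was negative for 54 of 54 members, with a median of −0.42 and a range between −0.68 (*RRP5*) and −0.17 (*EMG1*). By edgeR's quasi-likelihood test 26 members were called lower and 0 higher, where 2.11% of 5828 genes were called lower. UTP-A had 6 of its 7 members called, UTP-B 3 of 6, the box C/D proteins 2 of 4, the Mpp10 complex 0 of 3, the other small-subunit factors 5 of 16, the large-subunit factors 6 of 9 and the helicases 4 of 9. Of the 26, 25 were also called lower in *mrn1Δ* after the shift, and the remaining member was *NOG1*, which had the highest genotype difference in glucose.

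The 5 members with the smallest p in this test were *UTP13*, *ENP1*, *BMS1*, *RRP5* and *UTP4*. The interaction was −0.58 ± 0.09 for *UTP13* (edgeR adjusted p = 0.00344), whose log2 fold change was −2.68 ± 0.06 in *mrn1Δ* and −2.07 ± 0.08 in wild-type. In normalized CPM, *UTP13* had 144, 147 and 142 in *mrn1Δ* and 137, 139.9 and 132 in wild-type in fermentative libraries, where every *mrn1Δ* library lay above every wild-type one, and the reverse held in the respiratory libraries. *ENP1* had an interaction of −0.67 ± 0.11 (edgeR adjusted p = 0.00689) and *BMS1* of −0.65 ± 0.11 (edgeR adjusted p = 0.00854), where the *BMS1* changes were −2.44 ± 0.06 in *mrn1Δ* and −1.77 ± 0.10 in wild-type. *RRP5* reached −0.68 ± 0.13 (edgeR adjusted p = 0.0104), the largest of the members, and *UTP4* −0.53 ± 0.10 (edgeR adjusted p = 0.0104). *NSR1*, *RPF2* and *NOP1*, with the deepest falls, had interactions of −0.59 ± 0.15, −0.59 ± 0.12 and −0.30 ± 0.17, of which *RPF2* alone was called. *EMG1*, with a deep fall in both strains, had −0.17 ± 0.12 (edgeR adjusted p = 0.431).

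The count of 26 depended on single libraries more than the direction did. It was 13 without wild-type fermentative replicate 3, 13 without *mrn1Δ* fermentative replicate 1 and 14 without *mrn1Δ* fermentative replicate 2. Without wild-type respiratory replicate 1 or 3 it was 13 or 16. Without *mrn1Δ* respiratory replicate 1, 2 or 3 it was 15, 10 or 13, and with library totals alone it was 14. Over all genes, leaving out 1 library gave 50 to 346 calls lower and library totals alone gave 60, against 123 in the main fit. All 54 values stayed negative in the 19 alternatives, and *BMS1*, *DIP2*, *ENP1*, *NOG1*, *NOP56*, *RRP5*, *UTP13*, *UTP15*, *UTP4* and *UTP8* were called in every one of them. Set side by side, the log2 fold changes of the strains, which share no libraries, had a Pearson correlation of 0.983 over the 54 genes, and the *mrn1Δ* change was the larger fall for 54 of 54, by 0.20 (*EMG1*) to 0.71 (*RRP5*) on the log2 scale. These are differences of the fits made in each strain alone, and their median was −0.44.

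**Figure D5:**
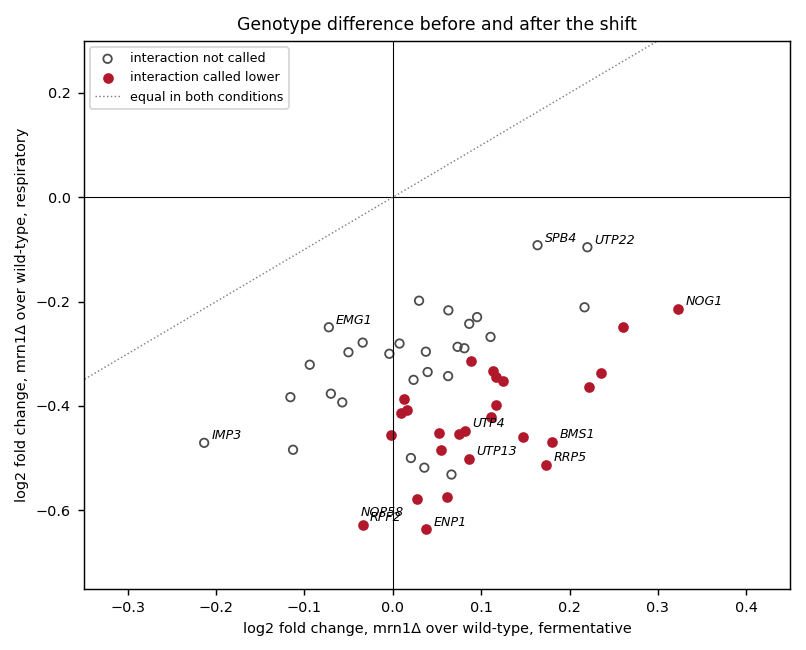
Each point is a member, with the log2 fold change of *mrn1Δ* over wild-type in fermentative cells (x axis) and in respiratory cells (y axis), filled where the interaction was called lower, and the dotted line marks equal differences in both conditions. All 54 points lie below the line and below 0 on the y axis, between −0.64 (*ENP1*) and −0.09 (*SPB4*), while the x values run between −0.21 (*IMP3*) and 0.32 (*NOG1*).

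The other genes of the pathway were counted from lists of 149 genes by role. After the shift in *mrn1Δ*, 47 of 47 other large-subunit and 26 of 26 other small-subunit factors were called lower. So were 20 of 21 other snoRNP and rRNA modification genes. Of the late and cytoplasmic factors 22 of 24 were called lower, and of the RNA polymerase I genes 11 of 15. In wild-type the counts were 47 of 47, 26 of 26, 20 of 21, 22 of 24 and 9 of 15. The medians in the same order were −2.25, −1.97, −1.96, −1.58 and −1.74 in *mrn1Δ* and −1.80, −1.62, −1.75, −1.36 and −1.30 in wild-type. *RPA12*, a polymerase I subunit, fell by a log2 fold change of −4.42 ± 0.10 in *mrn1Δ* and −3.86 ± 0.14 in wild-type. *RRS1*, the partner of *RPF2*, changed by −4.03 ± 0.09 in *mrn1Δ* and −3.66 ± 0.09 in wild-type, and the small-subunit export factor *RRP12* by −3.80 ± 0.06 in *mrn1Δ* and −3.13 ± 0.11 in wild-type. The methyltransferase gene *SPB1* changed by −3.52 ± 0.06 in *mrn1Δ* and −2.94 ± 0.13 in wild-type and *ALB1*, a late large-subunit factor, by −3.90 ± 0.10 in *mrn1Δ* and −3.66 ± 0.12 in wild-type. Some listed genes rose, among them *RRN5*, a polymerase I initiation factor, by 0.66 ± 0.08 in *mrn1Δ* and 0.54 ± 0.10 in wild-type, the snoRNP assembly factor *RSA1* by 0.51 ± 0.07 in *mrn1Δ* and 0.40 ± 0.09 in wild-type and the kinase gene *HRR25* by 0.75 ± 0.05 in *mrn1Δ* and 0.79 ± 0.07 in wild-type. Among the ribosomal protein genes, 134 of 137 were called lower in *mrn1Δ* and 131 in wild-type, with medians of −1.57 and −1.44. In respiratory cells, *mrn1Δ* over wild-type, 29 of 47 other large-subunit and 15 of 26 other small-subunit factors were called lower (medians −0.37 and −0.39). The member median was −0.36. Also called lower were 9 of 21 other snoRNP and modification genes, 10 of 24 late factors and 4 of 15 polymerase I genes. Of the ribosomal protein genes 26 of 137 were called lower there, where 7.83% of all genes were.

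Of 16 regulators of these genes, 6 were called higher and 9 lower in *mrn1Δ*, where 43.2% of all genes were called higher and 40.3% lower. In wild-type 5 were called higher and 7 lower, where 38.6% of all genes were called higher and 36.4% lower. *IFH1*, a coactivator of ribosomal protein genes, changed by −2.58 ± 0.06 in *mrn1Δ* and −2.20 ± 0.12 in wild-type. *TPK2*, a catalytic subunit of protein kinase A, rose by 2.38 ± 0.08 in *mrn1Δ* and 2.02 ± 0.09 in wild-type. The genes for the proteins that bind the promoter cores, named after their values were seen, did not move together. *DOT6* rose by 1.21 ± 0.06 in *mrn1Δ* and 1.61 ± 0.18 in wild-type and *STB3* by 1.21 ± 0.05 in *mrn1Δ* and 1.24 ± 0.11 in wild-type, whereas *TOD6*, the paralog of *DOT6*, changed by −1.91 ± 0.09 in *mrn1Δ* and −1.37 ± 0.14 in wild-type. In the interaction 2 of 15 polymerase I genes were called lower, *RPA49* at −0.63 ± 0.13 and *RPA43* at −0.48 ± 0.10. Of the other small-subunit factors 6 of 26 were called lower, of the other large-subunit factors 11 of 47 and of the late factors 5 of 24. Of the other snoRNP and modification genes 2 of 21 were called lower, and of the regulators 0 of 16. Of the 137 ribosomal protein genes 0 were called lower and 112 had a negative value, with a median of −0.14. The interaction medians were −0.39 for the other small-subunit and −0.38 for the other large-subunit factors, against −0.42 for the members. Those of the late factors, the snoRNP and modification genes and the polymerase I genes were −0.21, −0.22 and −0.14.

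The neighbours of the members were counted beside those of all genes. Of the 54, 0 lie next to another member, and of all 5886 genes 1.84% lie next to a member. A neighbour that is a member or on the lists of other biogenesis genes was found for 5 members (9.26%, against 6.29% of all genes). Both counts were near the share over all genes, so they show no particular arrangement of the members. *RRP3* shares its upstream region with *SSF1*, a large-subunit factor gene read in the other direction 297 bases away. The wild-type log2 fold change was −0.97 for *RRP3* and −1.94 for *SSF1*. The PAC cores counted for *RRP3*, 206 and 201 bases before its start codon, lie in this region, nearer to *SSF1*. *MAK5* and *BMT2*, 278 bases apart and also divergent, changed by −1.33 and −0.55. Of the *MAK5* PAC cores, the one 219 bases before its start codon lies nearer to *BMT2*. Which gene of a pair such a core acts on was not tested. *NOP56* and *PWP1* are in tandem, 398 bases apart, and changed by −1.90 and −1.99. Each of the 54 coding sequences is a single uninterrupted segment in the annotation.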

How the data were processed

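Total RNA was extracted with phenol-chloroform, rRNA was depleted and libraries were made with the NEBNext Ultra II kit. Per the submitters' processing notes, kallisto 0.44.0 and genome build R64 were used, and the annotation release and strand setting are not given in the sources used here. The authors deposited, per library, the estimated count of every coding sequence as kallisto gave it, with no normalization between libraries. Beside it the authors deposited its TPM, which kallisto scales by length and to a sum of 1000000.

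The members and lists were chosen with earlier results of these data known. Groups and replicate numbers came from the sample labels. Estimated counts were rounded to whole numbers and tested with edgeR 4.0.16 (limma 3.58.1, R 4.3.3): filterByExpr, TMM factors, robust glmQLFit and glmQLFTest, with Benjamini-Hochberg adjustment over all genes tested. Each comparison of 2 groups used its own 6 libraries, and the interaction used all 12. The SE is the absolute log2 fold change divided by the square root of F. DESeq2 1.42.0, other scalings, filters and thresholds, a replicate block and leaving out each library were the alternatives. Of 5917 identifiers 5911 matched R64.

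Members given library by library were the 3 largest changes among the calls of each comparison of 2 groups, the 3 smallest and each role's extremes in the wild-type shift, the 5 smallest p of the interaction, the highest and lowest TPM, and *NOP1*, *NSR1* and *UTP22*. *NOG1* and *IMP3* were added for their values in glucose. Same-numbered libraries deviated together in both shifts (correlations of 0.266, 0.148 and 0.278 in *mrn1Δ* and 0.230, 0.208 and 0.113 in wild-type). Between strains the values were 0.157, 0.209 and 0.032 in glucose and −0.018, 0.162 and −0.188 in respiratory cells. The main fits used no pairing. Pairing by number entered only through the replicate block, which in the interaction also joined same-numbered libraries of the 2 strains.

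Replicates were triplicate cultures. The SE and SD cover the spread between these cultures, and the CPM given for 3 counts covers counting error only.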

Additional observations from a re-analysis of the deposited data

Results flagged for a closer look

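The response to the shift differed between the genotypes by the test of the difference itself at 26 of the 54 members, each with the larger fall in *mrn1Δ* (edgeR's quasi-likelihood interaction, 2.11% of all genes called lower). The 5 with the smallest p were *UTP13* at −0.58, *ENP1* at −0.67, *BMS1* at −0.65, *RRP5* at −0.68 and *UTP4* at −0.53 on the log2 scale. Each of the 5 was called in all 19 alternatives.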

How the results depend on the processing

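Both shifts kept 54 of 54 members lower under every alternative run. With library totals alone the median over all genes moved to 0.21 in the *mrn1Δ* shift and 0.11 in the interaction. The member median of the *mrn1Δ* shift was then −2.24, which is −2.45 relative to all genes. In glucose 1 member (*NOG1*) was called higher with DESeq2 and 1 in the fit of all 12 libraries. In respiratory cells 8 members were called lower with a change of at least 0.5, and in the interaction 14 were called lower with library totals alone. Leaving out each library gave 0 to 1 called higher in glucose, 15 to 44 called lower in respiratory cells and 10 to 34 in the interaction. Over all genes the same fits gave 13 to 63, 165 to 473 and 50 to 346, against 34, 454 and 123 in the main fits. The cause was not tested, beyond the fewer libraries in such fits.

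With the replicate block, 54 and 54 members were lower in the shifts of the strains. The block left the count of calls within 1.5 times elsewhere (0 in glucose, 43 in respiratory cells and 29 in the interaction). The 418 alternative values of single members in the interaction gave 27 new and 15 lost calls, the 308 in respiratory cells 6 new and 40 lost, and the 28 in glucose 3 new and 0 lost. No direction of a called value reversed.

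Over all genes, calls higher and lower in respiratory cells were 394 and 454, against 260 and 577 with upper-quartile factors and 540 and 315 with library totals. In the interaction they were 65 and 123, against 100 and 60 with library totals and 112 and 301 with DESeq2. In glucose they were 34 and 19, against 151 and 54 with DESeq2 and 132 and 60 in the fit of all 12 libraries.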
